A study of Mus musculus with 6 samples.

Results

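The genes described are the nuclear-encoded subunits of the mitochondrial oxidative phosphorylation chain, with the assembly factors and tissue isoforms that share their names. Members were chosen by symbol alone: a single gene symbol that starts with Ndufa, Ndufb, Ndufc, Ndufs, Ndufv, Sdh, Uqcr or Atp5, or with Cox followed by a digit from 4 to 8. The rule found 94 of the 18193 genes with a single symbol on the array, through 185 probe sets, and all 94 matched a mouse RefSeq gene table. Of these, 92 passed the filter on dim probe sets and were tested among 12837 genes. Cox7b2 and Ndufb4 lay below the 40th percentile on all 6 arrays and were not tested.

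The cells were bone marrow myeloerythroid progenitors, sorted from mice aged 6 weeks for absence of lineage markers, presence of cKit and absence of Sca1. The 3 ICN2-positive samples came from male Rosa-lsl-ICN2 Mx1-cre+ mice and the 3 ICN2-negative samples from female Mx1-cre+ littermates. Both groups therefore carried Mx1-cre and both were injected with polyIC 3 times (20 mcg for each g of weight), with cells taken 1 week after the last. ICN2 is the active, intracellular part of the receptor Notch2, here placed at the Rosa locus behind a stop cassette that the Cre removes. Mx1-cre is switched on by interferon signalling, which polyIC induces, and it acts in many interferon-responsive cells besides these progenitors. Sex differed with genotype in every sample, so the effects of sex and of ICN2 cannot be told apart. The labels do not say whether the replicates were separate animals, so p-values measure only how far these samples spread, and that spread may be technical. Each sample was read on 1 expression array from 5 ng of total RNA, and values are log2 intensities. Differences are ICN2-positive minus ICN2-negative, with the standard error of the limma fit, and adjusted p-values are limma's, with Benjamini-Hochberg adjustment over all 12837 genes and a threshold of 0.05.

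Oxidative phosphorylation makes ATP in the inner mitochondrial membrane. Complexes I and II feed electrons from NADH and succinate into coenzyme Q, complex III passes them to cytochrome c, and complex IV, cytochrome c oxidase, hands them to oxygen. Complexes I, III and IV pump protons as they work, and complex V, the ATP synthase, uses the returning protons to make ATP. Most subunits are made in nearly all cells, while a few complex IV subunits have isoforms kept mainly to muscle, lung or testis. Assembly factors help to build a complex without remaining in it. In blood formation, stem cells are known to rest largely on glycolysis, and committed progenitors to rely more on respiration.

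Nuclear respiratory factor 1 (NRF1) and the ETS factor GABP are known regulators of this gene family, and RBPJ is the DNA-binding partner of intracellular Notch. The 250 bases before the annotated start were searched on both strands for GCGCA and GCGC parted by any 1 base (NRF1), CCGGAAG (ETS), GTGGGAA (RBPJ), AAGGTCA (the ERR nuclear receptors), AAGATGGC (YY1) and GGGCGG (SP1). Of the 94 members, 78 had an entry in the RefSeq promoter table (GRCm38.p6). The promoters of 4 members are shown as examples, chosen with the values of the genes known. Cox6a1 is the broadly expressed partner of the tissue isoform that fell. Ndufaf1 and Sdhaf3 are assembly factors with the ETS letters, and Ndufaf5 is an assembly factor with the RBPJ letters. None of these assembly factors passed the adjusted threshold. Each runs 5′ to 3′ on the strand of the gene, and capitals mark matches to the NRF1, ETS or RBPJ letters on either strand. Bases inside the annotated gene are not printed, so Ndufaf1, Sdhaf3 and Ndufaf5 show 245, 203 and 188 bases. The counts over members used the full 250 bases. None of the matches shown overlapped another. The Cox6a1 stretch (chr5:115348959-115349208, minus strand) holds the NRF1 letters at 2 places and the ETS letters at 1:
Cox6a1: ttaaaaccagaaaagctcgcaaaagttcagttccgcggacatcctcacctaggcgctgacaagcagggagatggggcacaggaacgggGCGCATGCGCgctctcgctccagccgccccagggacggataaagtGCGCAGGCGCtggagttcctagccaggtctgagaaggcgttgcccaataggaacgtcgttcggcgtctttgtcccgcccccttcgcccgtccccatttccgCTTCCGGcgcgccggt
The Ndufaf1 stretch (chr2:119662840-119663084, minus strand) and the Sdhaf3 stretch (chr6:6955768-6955970, plus strand) hold the ETS letters at 1 place each:
Ndufaf1: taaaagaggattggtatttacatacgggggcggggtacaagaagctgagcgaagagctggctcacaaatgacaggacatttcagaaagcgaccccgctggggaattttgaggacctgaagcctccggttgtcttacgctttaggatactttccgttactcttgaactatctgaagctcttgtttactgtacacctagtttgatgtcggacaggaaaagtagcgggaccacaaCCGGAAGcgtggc
Sdhaf3: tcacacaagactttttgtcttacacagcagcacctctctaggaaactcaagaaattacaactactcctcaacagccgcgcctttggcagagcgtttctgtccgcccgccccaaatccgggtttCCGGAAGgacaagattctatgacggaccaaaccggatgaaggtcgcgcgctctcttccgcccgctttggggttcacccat
The Ndufaf5 stretch (chr2:140170396-140170583, plus strand) holds the RBPJ letters at 1 place:
Ndufaf5: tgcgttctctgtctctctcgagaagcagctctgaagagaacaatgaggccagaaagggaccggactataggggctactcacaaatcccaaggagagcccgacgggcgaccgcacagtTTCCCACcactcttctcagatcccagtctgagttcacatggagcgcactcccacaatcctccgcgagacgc

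The NRF1 letters were present in 12 of the 78 members' stretches (15.4%), beside 8.94% of the 10323 tested genes with an entry. The ETS letters were present in 16 members (20.5%), beside 15.0%, and the ERR letters in 5 (6.41%), beside 3.62%. The SP1 letters were present in 35 (44.9%), beside 61.3%, the YY1 letters in 1 (1.28%), beside 2.43%, and the RBPJ letters in 3 (3.85%), beside 6.35%. Among the 11 assembly factors with an entry, 4 held the ETS letters, 1 the NRF1 letters, 9 the SP1 letters and 1 the RBPJ letters. Among the 63 broadly expressed subunits with an entry, 12 held the ETS letters, 11 the NRF1 letters, 24 the SP1 letters and 2 the RBPJ letters. The 4 tissue isoforms with an entry held none of the NRF1, ETS or RBPJ letters. These counts describe letters, and no binding was measured.

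The arrays were closely scaled, with median log2 intensities between 6.05 and 6.09. ICN2-positive replicate 1 stood apart from the other arrays of its group. Its correlation with them was 0.963 to 0.972, while the other ICN2-positive pair reached 0.992 and the ICN2-negative arrays 0.989 to 0.993 among themselves. Kit, the receptor used in the sort, read 10.45 ± 0.06 (SD, n = 3) without ICN2 and 10.57 ± 0.37 (SD, n = 3) with it. Cd34 and Fcgr3, surface markers that divide these progenitors, were lower on all ICN2-positive arrays, with differences of -1.35 and -2.05, and neither was called (adjusted p = 0.246 and 0.259). All 10 granulocyte-monocyte markers had a lower mean with ICN2, beside a higher mean in 53% of all genes, and 0 were called. Their median difference was -1.47, or -0.56 without ICN2-positive replicate 1. In that fit 5 of them were called lower, beside 3.08% of all genes. The summed linear intensity of the 10 markers was 95388 to 104210 in the ICN2-negative arrays, 74926 and 67987 in ICN2-positive replicates 2 and 3, and 20961 in replicate 1. The 8 B cell markers summed to 3754 to 14859 without ICN2 and 924 to 2110 with it, with 1 called lower (Dntt). The 11 erythroid markers summed to 67003 to 69609 and 59985 to 67524, with 1 called lower (Epb42). Slc4a1 (-2.67), Alas2 (-0.77), Car2, Tfrc and Ermap also had lower means, without a call. Epor (0.23), Klf1, Car1 and Gata1 had higher means, none of them called. The 7 monocyte, macrophage and dendritic cell markers summed to 7674 to 10079 without ICN2 and 1505 to 5535 with it, with 1 called lower (Flt3). Csf1r, Cd68 and Adgre1 had lower means without a call. Cx3cr1 and Itgax had higher means, by 0.59 and 0.89, also without a call. The 5 NK cell markers summed to 11706 to 13338 and 14108 to 24038, with 2 called higher, Gzma and Gzmb. Of the others, Nkg7 differed by -0.30 and Prf1 by 0.08, and Ncr1 was not tested. The 11 mast cell and basophil markers summed to 9871 to 14051 and 5264 to 26627, with 4 called higher (Mcpt1, Mcpt2, Mcpt4 and Il4). Mcpt1, Mcpt2 and Mcpt4 passed the filter through the ICN2-positive arrays alone. Without a call, Mcpt8, Cpa3, Ms4a2 and Fcer1a had lower means and Cma1 and Tpsb2 higher means. The sums of the megakaryocyte, T cell and late neutrophil lists overlapped between the groups. In the late neutrophil list 1 gene was called lower, Mmp8, which passed the filter through the ICN2-negative arrays. Of these lists, Pax5 (B cell), Hba-a1 (erythroid), Itgam (monocyte and macrophage), Tpsab1 (mast cell) and Ptcra (T cell) lay below the 40th percentile on all arrays. In bulk samples fewer cells of a type and less RNA per cell cannot be told apart, and the part of cell makeup in the results below was not tested.

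Among the 92 tested members, 1 fell with ICN2 and 0 rose. Over all genes tested, 560 were called, or 4.36%, with 332 higher (2.59%) and 228 lower (1.78%). At an unadjusted p under 0.05, 6 members were higher and 1 was lower, beside 15.3% and 12.2% of all genes. The median difference over the members was 0.01, beside 0.02 over all genes, and the median size of a difference without regard to sign was 0.04, beside 0.18. The mean was higher with ICN2 in 49 of the 92 members. The 3 arrays of each group did not overlap in 15 members that were higher and 12 that were lower, beside 20.7% and 16.9% of all genes. The tested members were 73 broadly expressed subunits, 12 assembly factors and 7 tissue isoforms of complex IV, and the call was among the last.

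**Figure D1:**
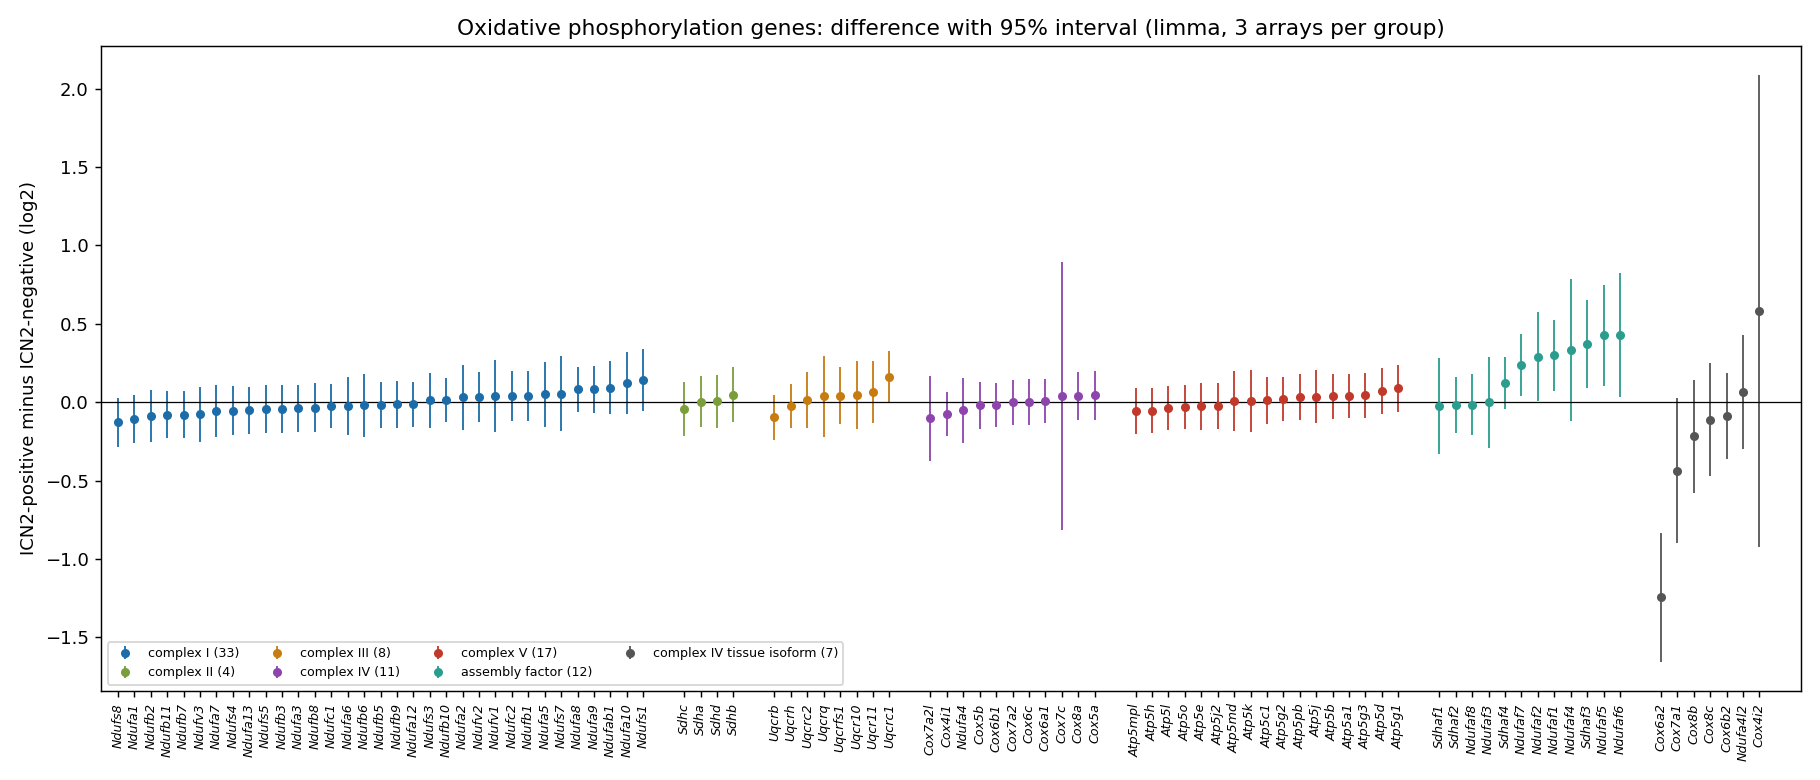
Log2 difference (ICN2-positive minus ICN2-negative, vertical axis) of each tested member, arranged by complex and kind along the horizontal axis, with 1 point per gene and its 95% interval from limma as a bar. The broadly expressed subunits of complexes I to V lie between -0.13 and 0.16, the assembly factors between -0.02 and 0.43, and Cox6a2 lies at -1.25, below all others.

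Complex I, the NADH dehydrogenase, is the largest of the 5 complexes. Of its 33 tested subunits 0 were called and 0 reached an unadjusted p under 0.05. Differences ran from -0.13 for Ndufs8 to 0.14 for Ndufs1, with a median of -0.02 and a higher mean in 14. The 95% intervals of all 33 lay between -0.28 and 0.34. They rest on the spread of these samples, which may be technical, so they set no bound on a change between animals.

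Ndufs8, which holds iron-sulfur clusters on the path of the electrons, read 13.17, 13.16 and 13.17 in the ICN2-negative arrays and 13.09, 13.05 and 12.97 in the ICN2-positive arrays. All 3 ICN2-positive arrays lay below all 3 others, by little. The difference was -0.13 ± 0.06 (adjusted p = 0.249). Ndufs1, the largest subunit, which also carries iron-sulfur clusters, read 12.05, 11.95 and 11.95 without ICN2 and 12.24, 12.03 and 12.12 with it. Its groups overlapped, and the difference was 0.14 ± 0.08 (adjusted p = 0.302).

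Ndufa1 and Ndufb11, small membrane-arm subunits, are the members on the X chromosome. Ndufa1 (chrX) read 12.39, 12.44 and 12.48 in the ICN2-negative arrays and 12.37, 12.33 and 12.29 in the ICN2-positive arrays, a difference of -0.11 ± 0.06 (adjusted p = 0.323). Ndufb11 read 13.74, 13.82 and 13.78 against 13.67, 13.69 and 13.73, a difference of -0.08 ± 0.06 (adjusted p = 0.432). In both, all ICN2-positive arrays, from male mice, lay below all ICN2-negative arrays, from female mice. Neither passed the test.

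Ndufb7 and Ndufs8 were the other complex I subunits whose ICN2-positive arrays all lay lower, and Ndufa8 and Ndufa9 were those whose arrays all lay higher. Ndufb7 differed by -0.08, Ndufa8 by 0.08 and Ndufa9 by 0.08. In total 2 of the 33 subunits were separated upward and 4 downward, beside 20.7% and 16.9% of all genes.

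Complex II, succinate dehydrogenase, is the one complex shared with the tricarboxylic acid cycle. Its 4 subunits differed by -0.04 to 0.05, with a median of 0.00. Sdhb, the iron-sulfur subunit, read 12.59, 12.51 and 12.53 without ICN2 and 12.68, 12.58 and 12.51 with it, a difference of 0.05 ± 0.07 (adjusted p = 0.702). Sdhc, a membrane anchor, differed by -0.04 ± 0.07 (adjusted p = 0.713), Sdhd, the other anchor, by 0.01 ± 0.07, and Sdha, the flavin-bearing catalytic subunit, by 0.00 ± 0.07. The groups overlapped in all 4, and their 95% intervals lay between -0.21 and 0.22.

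Complex III held the largest rise in mean among the broadly expressed subunits. Uqcrc1, a core subunit that carries no redox group, read 11.75, 11.64 and 11.78 in the ICN2-negative arrays and 11.90, 11.88 and 11.87 in the ICN2-positive arrays. The ICN2-positive arrays lay close together and above all others. The difference was 0.16 ± 0.07, a 1.12-fold higher intensity, with an adjusted p of 0.184. Uqcrb, which helps to bind coenzyme Q, stood at the other end, with 13.68, 13.71 and 13.66 against 13.56, 13.59 and 13.62. Its groups did not overlap either, and the difference was -0.10 ± 0.06 (adjusted p = 0.337). Uqcr11 differed by 0.06 ± 0.08 (adjusted p = 0.631). Over the 8 subunits picked by symbol, which leave out cytochrome c1 (Cyc1), 0 were called, the median was 0.04, and 6 had a higher mean. ICN2-positive replicate 1 was the highest of the 6 arrays in 6 of the 8, and without it the median was -0.03 with 2 of 8 higher.

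Complex IV, the cytochrome oxidase, was read through 11 broadly expressed members. These include Ndufa4, now placed in this complex despite its name, and Cox7a2l, which joins complexes III and IV into larger assemblies. Differences ran from -0.10 for Cox7a2l to 0.04 for Cox5a, with a median of -0.00 and 5 of 11 higher. Cox4i1, the subunit that carries the regulatory ATP site, was the one member here whose groups did not overlap. It read 13.33, 13.34 and 13.37 without ICN2 and 13.25, 13.29 and 13.27 with it, a difference of -0.08 ± 0.06 (adjusted p = 0.433). Cox7c was read poorly, with arrays spread over 7.02 to 8.24 and a 95% interval of -0.82 to 0.89, and it limits what can be said of that subunit.

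Complex V, the ATP synthase, had 17 tested subunits and 0 calls. Differences ran from -0.06 for Atp5mpl to 0.09 for Atp5g1. Atp5g1, which encodes the ring subunit c, read 13.44, 13.39 and 13.46 without ICN2 and 13.54, 13.48 and 13.54 with it. The groups were separated by little, and the difference was 0.09 ± 0.06 (adjusted p = 0.394). Atp5d, the delta subunit of the central stalk, read 13.54, 13.49 and 13.52 against 13.62, 13.58 and 13.57, a difference of 0.07 ± 0.06 (adjusted p = 0.467). Atp5mpl, a small membrane subunit, read 13.30, 13.31 and 13.33 against 13.30, 13.24 and 13.23, a difference of -0.06 ± 0.06 (adjusted p = 0.564). The catalytic Atp5b differed by 0.04 and its partner Atp5a1 by 0.04. The groups did not overlap in 5 of the 17 subunits that were higher and 3 that were lower, beside 20.7% and 16.9% of all genes.

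Over complexes I to V together, 0 of 73 broadly expressed subunits were called and 0 reached an unadjusted p under 0.05, a level that 27.4% of all genes reached, but fewer of the bright ones, as given below. Their median difference was 0.01 and the median size without regard to sign 0.04. The 95% interval lay within 0.5 log2 units of 0 for 72 of the 73, all but Cox7c. The direction of so small a median was not stable. ICN2-positive replicate 1 was the highest array in 32 of the 73, and without that array the median was -0.03 with 23 higher, beside 39 higher with it.

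Most members were bright, 69 of the 92 at a mean log2 intensity of 12 or more and 43 at 13 or more, and bright genes differed less on these arrays in general. Over all 448 genes at 13 or more the median size of a difference was 0.05, beside 0.03 for the 42 subunits among them. Over all 1270 genes between 12 and 13 it was 0.11, beside 0.05 for the 26 subunits there. An unadjusted p under 0.05 was reached by 7.14% of all genes at 13 or more and 20.5% of those between 12 and 13, and by 0 of the subunits in either range. Whether the brightest probe sets were near the limit of the scanner was not tested, since the scanner's own values were not used here.

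**Figure D2:**
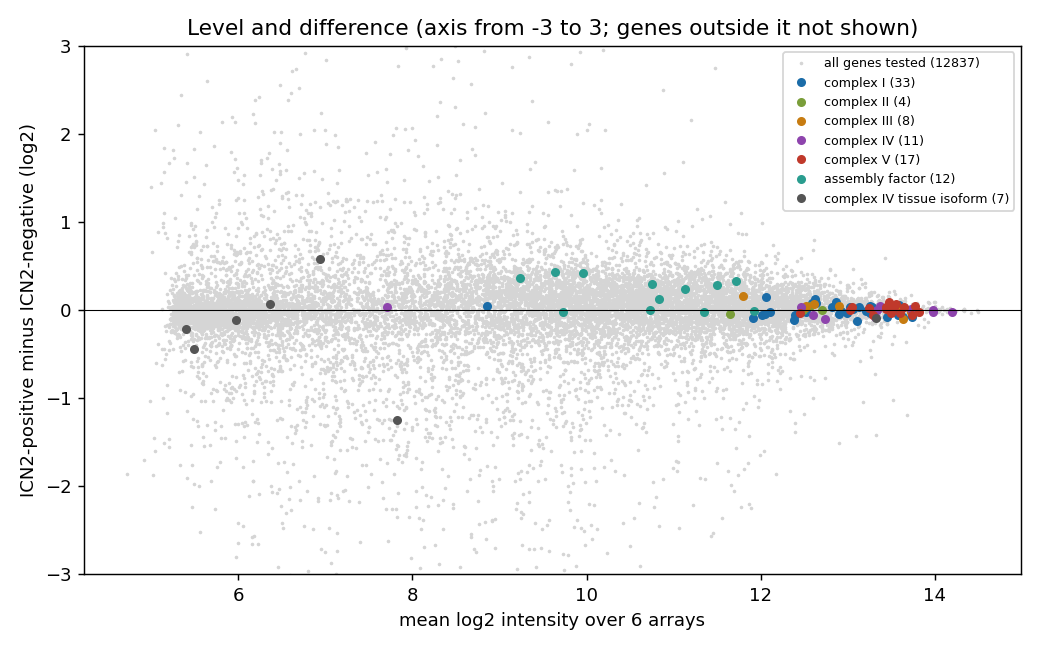
Log2 difference (ICN2-positive minus ICN2-negative, vertical axis) against mean log2 intensity over the 6 arrays (horizontal axis) for all 12837 tested genes in grey, with the members in colours by complex and kind. The grey cloud narrows toward high intensity, and most subunits lie in its bright end near 0. Outside the plot are 66 genes beyond 3 on the vertical axis.

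The one call was in the tissue isoforms of complex IV. Cox6a2 (chr7:128205435-128206366, GRCm38.p6) encodes the form of subunit 6a known from heart and skeletal muscle, which replaces Cox6a1 there. It read 8.29, 8.60 and 8.43 in the ICN2-negative arrays and 6.99, 7.51 and 7.08 in the ICN2-positive arrays. The lowest array without ICN2 lay well above the highest array with it. Cox6a2 fell by 1.25 ± 0.16 on the log2 scale, a 2.37-fold lower intensity (95% interval of the difference -1.66 to -0.84, adjusted p = 0.0221). The second probe set of Cox6a2 differed by -0.58 and was not called. The call held without ICN2-positive replicate 1 (difference -1.14, adjusted p = 0.0305), where 1 of the 92 members and 5.98% of all genes were called. Leaving out ICN2-negative replicate 1, 2 or 3 or ICN2-positive replicate 3 took the adjusted p to 0.0522, 0.101, 0.101 and 0.0858, with differences between -1.41 and -1.14 over all 6 omissions.

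Cox6a1, whose promoter is printed above, lay at nearly the same reading in both groups. It gave 13.70, 13.75 and 13.70 without ICN2 and 13.71, 13.74 and 13.73 with it, a difference of 0.01 ± 0.06 (95% interval -0.14 to 0.15, adjusted p = 0.945). The intervals of Cox6a1 and Cox6a2 do not meet, although levels of the genes cannot be compared across their probe sets. Around Cox6a2, 5 genes within 100 kb were tested and 0 were called. Their differences ran from -0.12 for Rusf1 to 0.89 for Itgax, with a lowest adjusted p of 0.373. A list of 7 striated muscle markers had 6 tested genes, 0 called, a median difference of 0.02 and sums of 1001 to 1112 without ICN2 and 830 to 1044 with it. A list of 9 plasmacytoid dendritic cell markers, cells in which Cox6a2 is also known, had 0 called, a median of -0.08 and sums of 7805 to 8401 and 7757 to 8500. Both lists were chosen after the values of Cox6a2 were seen. The granulocyte-monocyte, B cell and monocyte, macrophage and dendritic cell sums given above were also lower with ICN2 and the NK cell sum higher, and their part in the fall of Cox6a2 was not tested.

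The other tissue isoforms did not pass the test. Cox7a1, the muscle form of subunit 7a, read 5.68, 5.77 and 5.67 without ICN2 and 5.28, 4.90 and 5.63 with it. All 3 ICN2-positive arrays lay lower, and 2 of them lay below the 40th percentile, so the probe set passed the filter through the ICN2-negative arrays. The difference was -0.44 ± 0.19 (adjusted p = 0.202). Cox8b, the muscle form of subunit 8, read 5.42, 5.60 and 5.52 against 5.50, 5.00 and 5.38, with overlapping groups and a difference of -0.22 ± 0.14 (adjusted p = 0.375). Cox4i2, the lung form of subunit 4, varied most. It read 6.93, 6.04 and 6.97 without ICN2 and 5.93, 8.05 and 7.70 with it, so ICN2-positive replicate 1 was the lowest of the 6 arrays and the other ICN2-positive arrays were the highest. The difference was 0.58 ± 0.61 (adjusted p = 0.573), and 1.23 without replicate 1 (adjusted p = 0.102).

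Cox6b2 and Cox8c, both known from testis, differed by -0.09 ± 0.11 (adjusted p = 0.633) and -0.11 ± 0.15 (adjusted p = 0.659). Cox8c had means of 6.03 without ICN2 and 5.92 with it. Cox6b2 had means of 13.36 and 13.27, as bright as many broadly expressed subunits, although it was classed as a tissue isoform by name. What its probe set reads in these cells was not tested. Ndufa4l2, a relative of Ndufa4 known to be induced by low oxygen, differed by 0.07 ± 0.15 (adjusted p = 0.796). It read 6.67 in ICN2-positive replicate 1 and 6.11 and 6.43 in the others, against 6.29 to 6.36 without ICN2. Over the 7 tested isoforms the median difference was -0.11, with 2 higher and 5 lower means, and -0.23 without ICN2-positive replicate 1, with 1 higher.

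**Figure D3:**
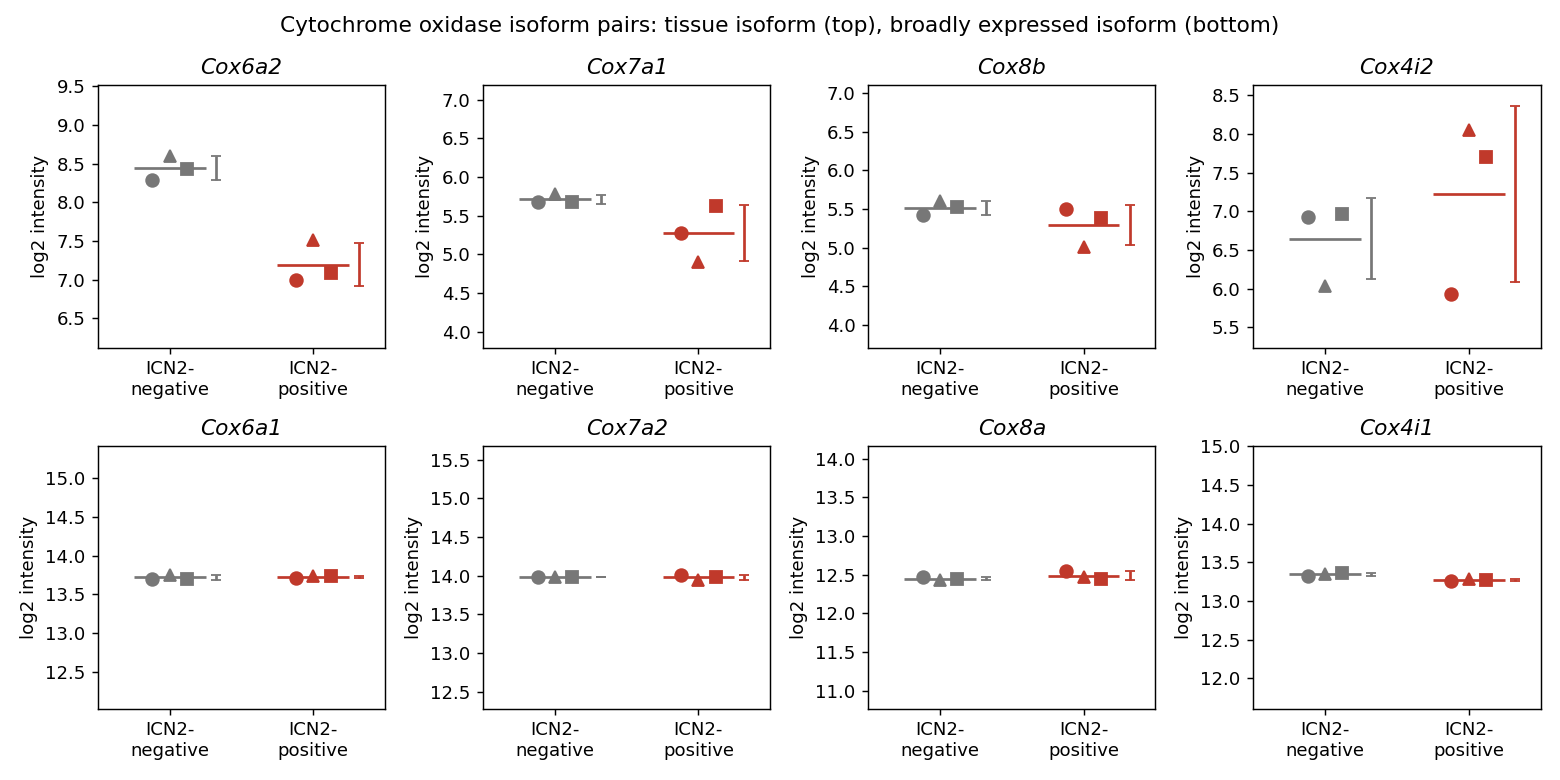
Log2 intensity (vertical axis) on each array of 4 complex IV tissue isoforms (top) and their broadly expressed partners (bottom), with ICN2-negative arrays in grey and ICN2-positive arrays in red. Points are arrays (circle, triangle and square for replicates 1, 2 and 3), horizontal lines are group means, bars are 1 SD to either side, and all panels span the same number of log2 units. Cox6a2 lies at 8.29 to 8.60 without ICN2 and at 6.99 to 7.51 with it, while the arrays of Cox4i2 spread from 5.93 to 8.05.

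The 12 assembly factors had a higher median difference than the subunits, a description with no test. Of the 12, 0 were called, and 6 reached an unadjusted p under 0.05, all higher with ICN2, beside 15.3% of all genes in that direction and 19.2 to 19.6% of the genes in the ranges from log2 8 to 12 that hold these factors. The arrays of the groups did not overlap in 7, all higher, beside 20.7% of all genes, and 0 were separated downward. Of all genes at log2 8 to 10, 722 of 3103 were separated upward. The counts were 484 of 1930 at 10 to 11 and 505 of 1826 at 11 to 12. The median difference of the factors was 0.26, beside 0.01 for the subunits and 0.02 for all genes, over a range of -0.02 to 0.43. Most subunits were brighter than the factors. The median was 0.40 for the 4 factors at log2 8 to 10, beside 0.05 for all genes there. It was 0.12 for the 3 factors at 10 to 11, beside 0.06, and 0.24 for the 5 at 11 to 12, beside 0.04. The 3 subunits at 11 to 12 had a median of -0.04.

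Ndufaf5, a methyltransferase-like protein that modifies the complex I subunit Ndufs7, read 9.75, 9.56 and 9.94 without ICN2 and 10.35, 10.06 and 10.11 with it. Its promoter, printed above, holds the RBPJ letters, which 3.85% of members and 6.35% of tested genes with an entry held. Any part of those letters in the values of Ndufaf5 was not tested. All ICN2-positive arrays lay higher, and the difference was 0.43 ± 0.13, or 1.34-fold (adjusted p = 0.114). Ndufaf6, needed early in the assembly of complex I, read 9.57, 9.40 and 9.31 against 10.18, 9.71 and 9.67, a difference of 0.43 ± 0.16 (adjusted p = 0.161). ICN2-positive replicate 1 was clearly the highest array.

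Ndufaf1, which binds membrane-arm intermediates of complex I, read 10.64, 10.52 and 10.66 without ICN2 and 11.06, 10.82 and 10.84 with it. The groups were separated, and the difference was 0.30 ± 0.09 (adjusted p = 0.115). Ndufaf7, a methyltransferase, read 11.11, 10.91 and 11.03 against 11.29, 11.28 and 11.18, a difference of 0.24 ± 0.08 (adjusted p = 0.134). Ndufaf2, a late chaperone and paralogue of Ndufa12, read 11.47, 11.22 and 11.38 against 11.83, 11.56 and 11.54, a difference of 0.29 ± 0.11 (adjusted p = 0.176). In these 3 genes every ICN2-positive array lay above every ICN2-negative array.

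Ndufaf4 differed by 0.33 ± 0.18 (adjusted p = 0.294) with overlapping groups. Its partner Ndufaf3 differed by -0.00 ± 0.12, and Ndufaf8, which works with Ndufaf5, by -0.02 ± 0.08. The groups overlapped in both.

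Of the complex II factors, Sdhaf3, one of the factors that help to mature the iron-sulfur subunit Sdhb, had the largest difference. It read 9.08, 9.07 and 9.02 without ICN2 and 9.63, 9.23 and 9.42 with it. The tight ICN2-negative arrays all lay lower, and the difference was 0.37 ± 0.11 (adjusted p = 0.115). Sdhaf4, which assists the flavin subunit, read 10.69, 10.80 and 10.82 against 10.88, 10.87 and 10.93, a difference of 0.12 ± 0.07 (adjusted p = 0.291). Sdhaf1 and Sdhaf2 differed by -0.02 ± 0.12 and -0.02 ± 0.07, with overlapping groups.

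ICN2-positive replicate 1 was the highest of the 6 arrays in 8 of the 12 factors. Relative to the mean of the ICN2-negative group, the median over the factors was 0.36 in that array and 0.18 and 0.18 in the others, while single ICN2-negative arrays lay at 0.06, -0.09 and 0.02. Without that array the median difference was 0.20, with 8 of 12 higher and 0 called. With arrays weighted by their spread, 2 of the 12 were called higher, Ndufaf1 and Sdhaf3, in a fit that called 25.4% of all genes and 4 of the 92 members. That fit leaned mostly on 1 ICN2-positive array, with weights of 0.24, 0.63 and 5.72 for replicates 1, 2 and 3. ICN2-positive replicate 1 also had the lowest sum of granulocyte-monocyte markers, and the part of that in the factors' values was not tested.

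**Figure D4:**
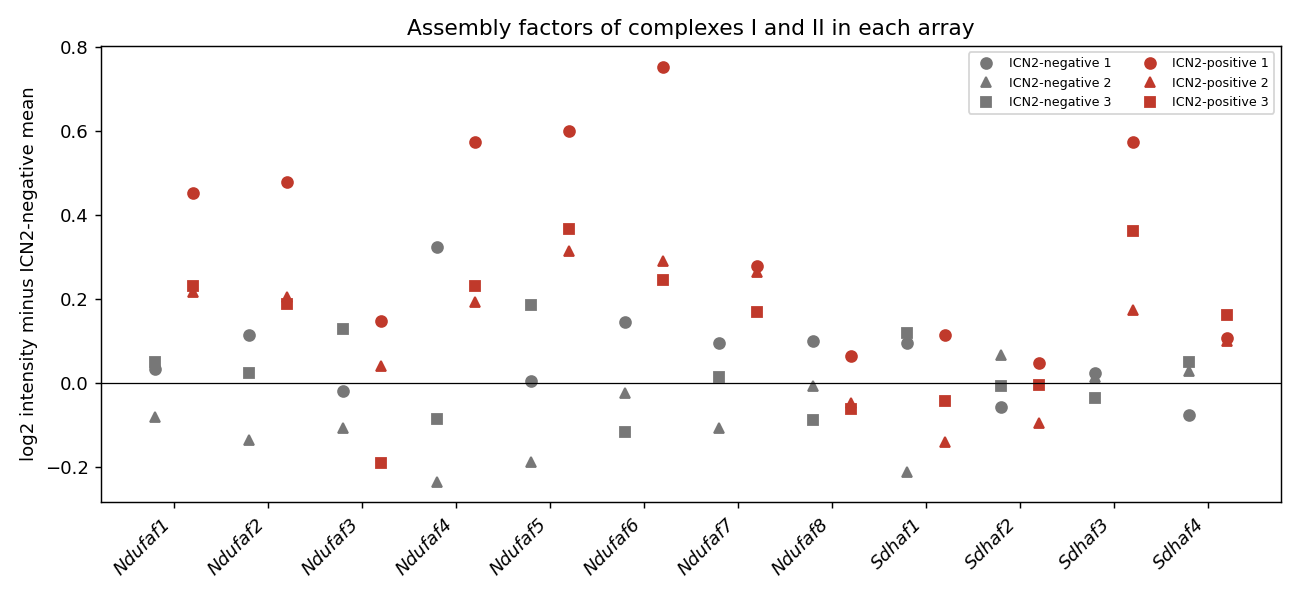
Log2 intensity relative to the gene's ICN2-negative mean (vertical axis) of the 12 assembly factors on each array, ICN2-negative arrays in grey and ICN2-positive arrays in red. The points of the ICN2-positive arrays lie above those of the ICN2-negative arrays for 7 factors, and ICN2-positive replicate 1 is the highest array for 8.

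The rest of the pathway was read through 10 lists of other genes, some of which hold member assembly factors. In all of them 0 genes were called, so the counts below are at an unadjusted p under 0.05, beside 15.3% of all genes higher and 12.2% lower. Complex I assembly factors had 9 of 17 higher and 1 lower, with a median of 0.29. The 9 of these that are not members had 4 higher and 1 lower and a median of 0.09, or 0.02 without ICN2-positive replicate 1. Tmem186, a complex I assembly protein, differed by 0.34 ± 0.07 (adjusted p = 0.0604). Cytochrome oxidase assembly factors had 4 of 20 higher and 0 lower, with a median of 0.12, or 0.08 without that array. Coa7 and Lrpprc, the latter a protein that stabilises mitochondrial mRNAs, differed by 0.63 ± 0.12 (adjusted p = 0.0521) and 0.51 ± 0.12 (adjusted p = 0.0722).

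Complex II factors, all of them members, had 1 of 4 higher and a median of 0.05. Complex III factors with cytochrome c had 1 of 9 higher and a median of 0.13, or 0.05 without ICN2-positive replicate 1, with Uqcc1 at 0.31 ± 0.08 (adjusted p = 0.0906) and Hccs, which attaches heme to cytochrome c, at 0.18 ± 0.09 (adjusted p = 0.241). This list was drawn up to include Cyc1, a complex III subunit that the symbol rule did not pick. The list of ATP synthase factors, its inhibitor and the adenine nucleotide carriers had 3 of 7 higher and a median of 0.22, or 0.10 without ICN2-positive replicate 1. It held the carrier Slc25a4, at 0.40 ± 0.09 (adjusted p = 0.0736), and the assembly factor Atpaf2, at 0.35 ± 0.11 (adjusted p = 0.125). Over the 37 tested assembly genes outside the members, 11 were higher and 1 was lower, the median was 0.13, and 30 had a higher mean. Without ICN2-positive replicate 1 their median was 0.08 with 29 higher.

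Around the chain, coenzyme Q synthesis and electron transfer flavoprotein genes had 7 of 16 higher and 0 lower, with a median of 0.15. Gpd2, which passes electrons from glycerol 3-phosphate to coenzyme Q, differed by 0.41 ± 0.09 (adjusted p = 0.0586), and Coq3, a methyltransferase of coenzyme Q synthesis, by 0.44 ± 0.10 (adjusted p = 0.0704). The tricarboxylic acid cycle had 0 of 18 in either direction and a median of 0.06, or 0.04 without ICN2-positive replicate 1, with Idh3a at 0.16 ± 0.08 (adjusted p = 0.264) and Ogdh at 0.19 ± 0.10 (adjusted p = 0.294). Regulators of mitochondrial biogenesis had 3 of 17 higher and 1 lower, with a median of 0.11, or 0.03 without ICN2-positive replicate 1. Tfam, which packs and transcribes mitochondrial DNA, differed by 0.44 ± 0.10 (adjusted p = 0.075), and Tfb2m, a mitochondrial transcription factor, by 0.30 ± 0.06 (adjusted p = 0.0603).

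Proteins of the mitochondrial ribosome, which makes the chain's mitochondrially encoded subunits, had 16 of 76 higher and 1 lower. Their median difference was 0.15, and 67 of the 76 had a higher mean, beside 39 of 73 for the subunits and 53% of all genes. Mrpl49 differed by 0.30 ± 0.08 (adjusted p = 0.0942) and Mrps5 by 0.32 ± 0.09 (adjusted p = 0.101). ICN2-positive replicate 1 was the highest array in 63 of the 76, and without it the median was 0.11 with 65 higher. At like brightness, between log2 12 and 13, the median difference was 0.13 for 34 ribosomal proteins and 0.00 for 26 subunits, beside 0.02 for all genes.

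Glycolysis was the list with more lower than higher genes, 7 lower and 3 higher of 17, with a median of -0.11. Pgam1, phosphoglycerate mutase, differed by -0.46 ± 0.10 (adjusted p = 0.0594), and the aldolase Aldoc by -0.84 ± 0.19 (adjusted p = 0.0672). Without ICN2-positive replicate 1, 1 gene of this list passed the threshold upward and 2 downward, beside 2.91% and 3.08% of all genes in that fit.

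**Figure D5:**
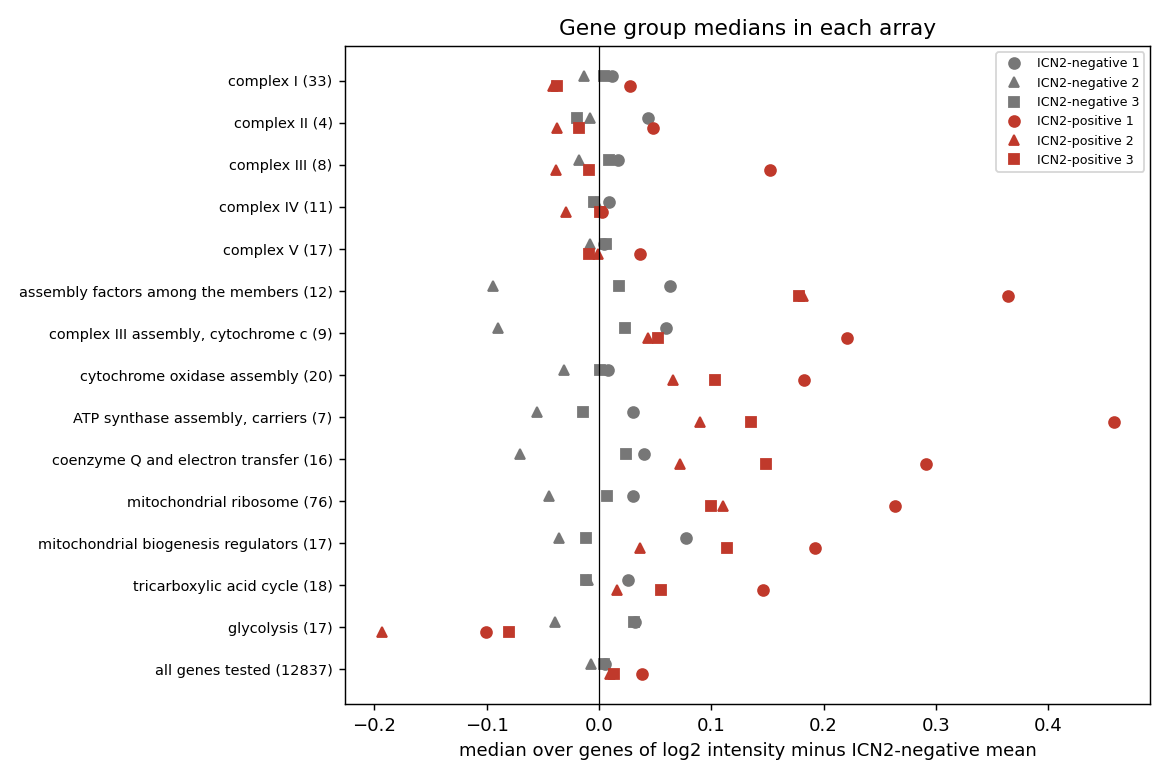
Median log2 intensity relative to the ICN2-negative mean (horizontal axis) over the members of each complex, the member assembly factors, 8 pathway lists and all tested genes, with 1 point per array (grey without ICN2, red with it) and the number of genes in parentheses. ICN2-positive arrays of the assembly factors lie at 0.18 to 0.36, those of the mitochondrial ribosome at 0.10 to 0.26, and those of complex I at -0.04 to 0.03.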

How the data were processed

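Total RNA of sorted progenitors was amplified, labelled with biotin and read on Affymetrix mouse arrays, 3 per group, per the labels' protocols. The authors deposited 1 intensity per probe set and array, made with RMA per the submitters' processing notes, in a version not given in the sources used here. Deposited values are on a linear scale (5.13 to 24679), and log2 was taken here. RMA puts all arrays on nearly the same distribution, so a change in total RNA per cell would not be seen.

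Of 45101 probe sets, 64 controls were left out. By the platform annotation 34958 had 1 gene symbol, 932 several and 9211 none, and 10 probe sets with several symbols that the rule would match were left out. A probe set was tested if it lay above the 40th percentile of its array on at least 3 of 6 arrays, and each gene was represented by the brightest of its probe sets on average. Of the tested members, 50 have several tested probe sets and 49 are read by a probe set that may detect several transcripts.

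Groups were compared by lmFit and eBayes without covariates (limma 3.58.1, R 4.3.3), with Benjamini-Hochberg adjustment at 0.05. The script was tested on simulated data. Named genes were members past the threshold, per complex the 3 of smallest p and the largest rise and fall, X-linked members, tissue isoforms and, per pathway list, the 2 of smallest p. Other named members were chosen after their values were seen, as were the neighbours of Cox6a2 and the muscle and plasmacytoid dendritic cell lists. Members and lists were chosen with earlier results of these data known. Alternatives changed the filter, scaling, variance model, array weights, probe set, replicate block and replicates.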

Additional observations from a re-analysis of the deposited data

How the results depend on the processing

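Over 17 alternatives, the count of all genes called was 560 in the reported fit, 847 with an intensity trend, 3262 with array weights and 99 to 768 with a replicate left out. The count was 272, 99 and 100 without ICN2-negative replicates 1, 2 and 3, and 768, 334 and 141 without ICN2-positive replicates 1, 2 and 3. Called members numbered 1 in the reported fit, 0 to 1 with a replicate left out, and 4 with array weights (Ndufaf1 and Sdhaf3 higher, Cox6a2 and Ndufs8 lower). The members' median difference was -0.0307 to 0.0209 with a replicate left out. With a replicate left out, the median was -0.04 to -0.01 for complex I, -0.02 to 0.02 for complex II, -0.03 to 0.09 for complex III, -0.0196 to 0.00265 for complex IV and -0.00 to 0.03 for complex V. With the mean of all probe sets, it was 0.0238 for complex I, 0.0611 for complex II and -0.0192 for complex IV. With probe sets that may read several transcripts left out, it was 0.0262 for complex I and 0.0645 for complex II. Complex medians this close to 0 therefore have no settled sign. Calls in the pathway lists, 0 in the reported fit, numbered 5 with the filter at the 60th percentile (Coa7, Gpd2, Tfb2m and Tmem186 higher, Pgam1 lower), 10 with an intensity trend and 35 with array weights. They numbered 1 (Gpd2) both with the mean of probe sets and with probe sets of several transcripts left out, and 0 to 3 with a replicate left out (Hk3 and Slc2a1 lower and Ldhb higher without ICN2-positive replicate 1, Coa7 higher without replicate 2). Correlations of deviations were 0.178, 0.135 and 0.0935 between same-numbered arrays, and -0.216 to 0.162 between the others. Values this weak cannot settle whether the replicate numbers pair the samples, and the reported fit used no pairing. The replicate block called 340 genes, with 1 member. Over 681 pairs of a named gene and an alternative, 644 kept the call of the reported fit, 33 passed the threshold anew and 4 lost it, all of Cox6a2 with a replicate left out. No called value changed sign. The cause of these changes was not tested. The 3 arrays per group limit the precision, and no detection calls lie behind the values.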
